A study of Homo sapiens with 6 samples.

Results

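NRF2 pathway antioxidant genes were followed across HCT-116 human colon carcinoma cells that carried the PMSCV vector either with GOLPH3 or empty. The 9 genes (NFE2L2, KEAP1, GCLC, GCLM, TXNRD1, SRXN1, NQO1, HMOX1 and OSGIN1) were taken by their symbols from the 60546 gene identifiers of the deposited table, and each symbol matched a single identifier. RNA-seq libraries came from 3 samples named HCT-116-PMSCV-GOLPH3 and from 3 samples with the empty vector, named HCT-116-PMSCV-Vector. Both were stable lines made by lentiviral infection, with puromycin selection stated for the GOLPH3 line, and were grown in DMEM with fetal bovine serum, and the samples of a group came from different generations of its line. Each title holds a P followed by a number: GOLPH3 replicates 1, 2 and 3 have 8, 12 and 13, and Vector replicates 1, 2 and 3 have 12, 11 and 13. The labels do not state what this number marks, and libraries are named below by group and number, such as GOLPH3 P8. Nothing in the labels says that the samples of a group were separately transduced, so p-values measure the spread between these samples only.

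The GOLPH3 transcript itself had 1629.5, 1272 and 1383 normalized reads in GOLPH3 P8, P12 and P13 and 1968, 1892 and 1472 in Vector P12, P11 and P13. It was not higher in the GOLPH3-labelled libraries (log2 change -0.31, 95% confidence interval -0.91 to 0.28, limma adjusted p = 0.609), so the groups go by their labels here. Recovered reads were between 15708846 and 21900764 per library, and a count of 0 still allows up to 3 reads, which correspond to 2.47 to 3.29 normalized reads. Of 12 colon epithelial markers, KRT20 and CDX1 had at most 3 reads in every library, while EPCAM had between 1758 and 6129 normalized reads. The summed level of the 12 was 54871 to 122459 in the GOLPH3-labelled libraries and 27779 to 37980.0 in the Vector-labelled ones. The sum of 8 mesenchymal markers was 1577 to 1994 and 4054 to 7235 in the same order. Of these 8, 7 were tested, of which 5 fell (VIM, CDH2, ZEB1, ZEB2 and SPARC) and 0 rose, beside 4.12% and 0.953% of all genes tested. At an unadjusted p under 0.05 in limma, 6 of the 7 were lower and 1 was higher, beside 10.1% and 7.51% of all genes. A list of 6 genes typical of the kidney-derived HEK293 line, which was chosen after earlier results of these data, summed to 0 to 2.15 in the GOLPH3-labelled libraries and 7055 to 19838 in the Vector-labelled ones. In bulk RNA, fewer cells of a type and less RNA per cell cannot be told apart. A difference in cell line between the groups, if there is one, cannot be told apart from the group label. The part of these marker differences in the results below was not tested.

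NRF2, the product of NFE2L2, is a basic leucine zipper transcription factor that is held in the cytoplasm and sent for degradation by KEAP1, an adaptor of a cullin ubiquitin ligase. When reactive cysteines of KEAP1 are modified by oxidants or electrophiles, NRF2 accumulates, enters the nucleus with a small MAF partner and binds antioxidant response elements. Its classical targets make glutathione, reduce thioredoxin and peroxiredoxins, and detoxify quinones and haem. The pathway is controlled mainly at the level of the NRF2 protein, which was not measured here.

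The core of the antioxidant response element, TGACNNNGC, was searched on both strands of windows from 250 bases before to 50 bases after annotated gene starts (RefSeq, GRCh38.p14), and no other motif was searched. The table of windows held 8 of the 9 genes, with 11 windows, of which 4 (36.4%) had a match, in 3 genes. Among all 35116 windows 13.3% had one, and among 67 windows of other NRF2 pathway genes 26.9%. The matches are shown because they are the sequence by which NRF2 is known to reach its targets. Each line is read along the strand of the gene, with the match in capitals. A match is only a match of letters, and no match in a window says nothing on the factor.
GCLM, 34 bases before the start (chr1:93909446-93909474, minus strand): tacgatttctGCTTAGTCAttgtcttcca
TXNRD1, first start, 99 bases before it (chr12:104215670-104215698, plus strand): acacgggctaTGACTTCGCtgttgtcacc
TXNRD1, first start, 8 bases before it (chr12:104215761-104215789, plus strand): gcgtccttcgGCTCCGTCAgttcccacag
TXNRD1, second start, 102 bases before it (chr12:104286920-104286948, plus strand): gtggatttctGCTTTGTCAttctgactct
KEAP1, second start, 54 bases before it (chr19:10502807-10502835, minus strand): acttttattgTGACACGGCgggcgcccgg
KEAP1, second start, 31 bases before it (chr19:10502784-10502812, minus strand): gcccggctctGCTTAGTCAtggtgacctg
GCLM and the KEAP1 site nearest its start held the same match, which reads TGACTAAGC on the opposite strand. The second-start matches of KEAP1 and TXNRD1 lie within annotated exons of those genes (GENCODE 29).

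Levels are given as normalized reads, which are reads scaled by the size factor of each library and not corrected for gene length. Log2 changes are differences of log2(normalized reads + 1) between the GOLPH3-labelled and the Vector-labelled libraries, fitted with limma, so that the changes of low genes are understated. The Benjamini-Hochberg adjustment of p-values ran over all 26536 genes tested, and a gene is said to have risen or fallen only at an adjusted p under 0.05.

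Of the 9 genes, 0 passed this test in limma, beside 5.07% of all genes tested. SRXN1, NQO1 and OSGIN1 had an unadjusted p under 0.05, all higher in the GOLPH3-labelled libraries, which is 3 of 9 beside 7.51% of all genes in that direction. DESeq2 on the recovered reads called 2 of 9, NQO1 (adjusted p = 0.0438) and OSGIN1 (adjusted p = 0.00811), beside 7.77% of all genes, and edgeR called 0 of 9, beside 6.58%. The median log2 change of the 9 genes was 0.64, and 7 of 9 were above 0. Over all genes tested the median was 0.02 and 50.9% were above 0. NQO1 was the only gene of the 9 whose libraries did not overlap between groups, beside 22.0% of all genes tested.

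**Figure D1:**
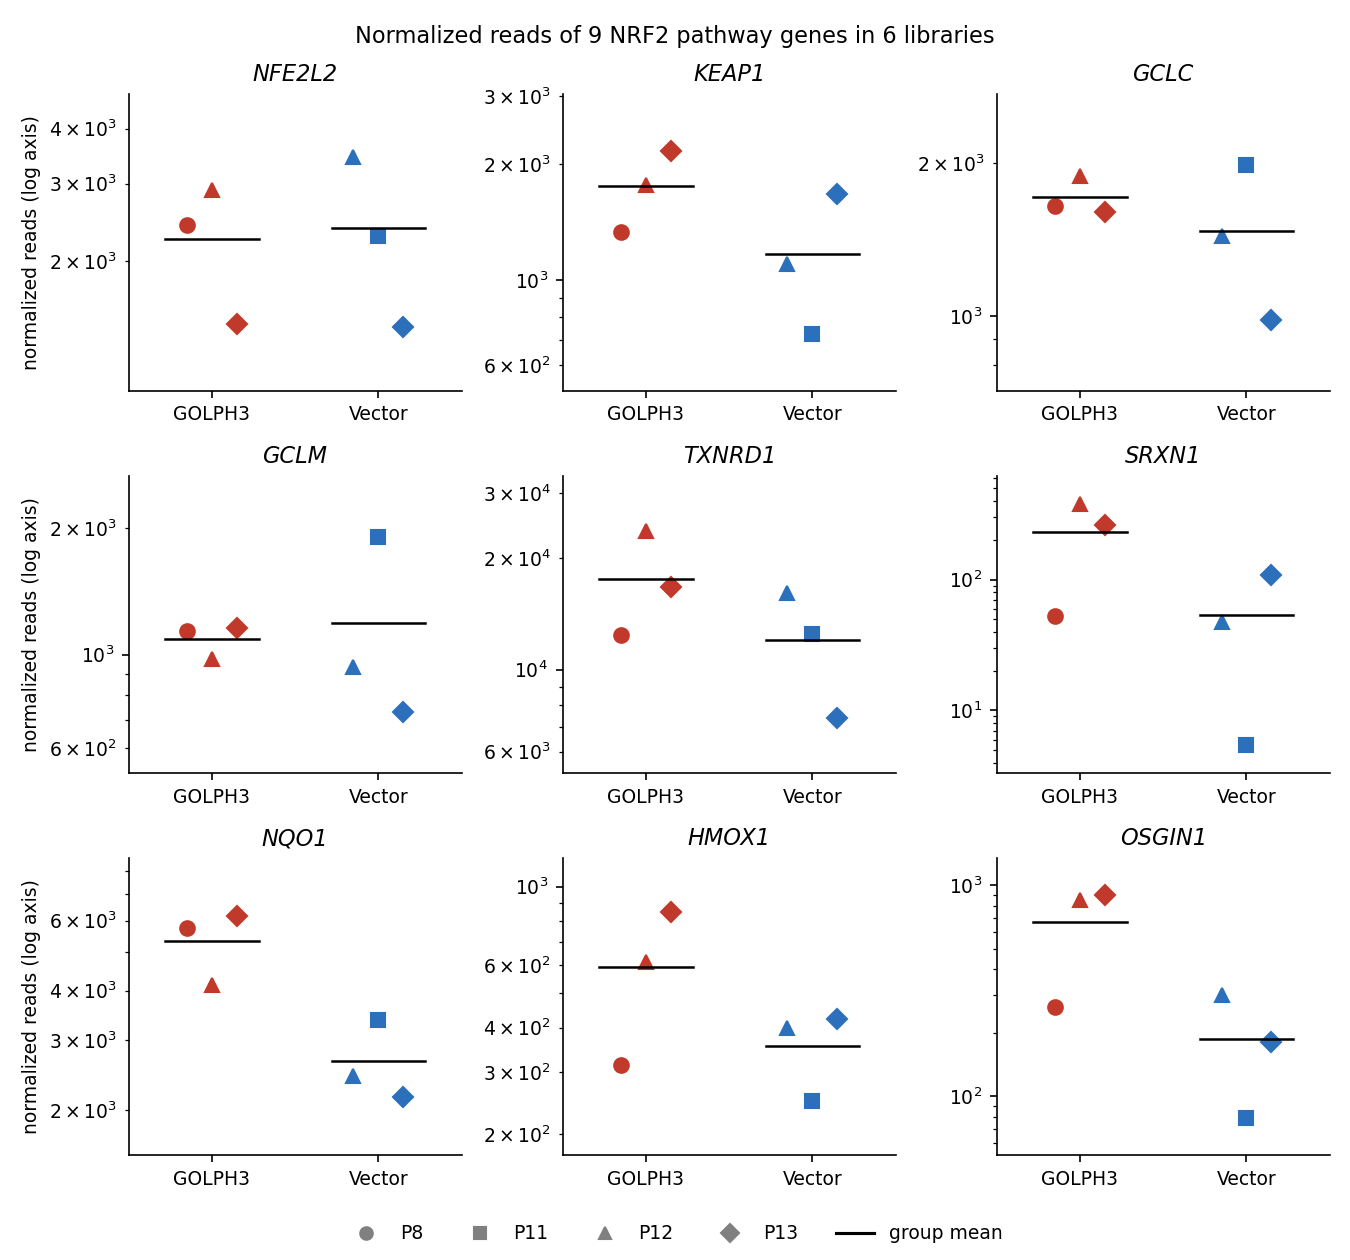
Normalized reads of the 9 genes on log axes. Each point is a library, with red for GOLPH3 and blue for Vector, the symbol giving the number after P and the line the group mean. For NQO1 the 3 GOLPH3 libraries (4128 to 6152) sit above the 3 Vector libraries (2158 to 3361), while every other gene has groups that overlap.

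NFE2L2 (chromosome 2, 177227595 to 177392697, GRCh38, minus strand) had 2416, 2898 and 1439 normalized reads in GOLPH3 P8, P12 and P13 and 3450.2, 2279.8 and 1414 in Vector P12, P11 and P13. In both groups P12 was the highest and P13 the lowest, and the groups overlapped fully. Mean levels of 2251 ± 743 (SD, n = 3) and 2381 ± 1022 (SD, n = 3) gave a log2 change of -0.05 (standard error 0.38, 95% confidence interval -0.87 to 0.77, limma adjusted p = 0.967). KEAP1 (chromosome 19, 10486120 to 10503741, minus strand) had 1334, 1759 and 2165 in the GOLPH3-labelled libraries and 1099, 725 and 1673 in the Vector-labelled ones. Vector P13 lay among the GOLPH3 libraries and Vector P11 was the lowest of all 6. The log2 change of KEAP1 was 0.64 (standard error 0.35, 95% confidence interval -0.11 to 1.40, limma adjusted p = 0.375).

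GCLC and GCLM encode the catalytic and modifier subunits of glutamate-cysteine ligase, the rate-limiting enzyme of glutathione synthesis. GCLC (chromosome 6, 53497341 to 53616970, minus strand) had 1642, 1888 and 1602 normalized reads in GOLPH3 P8, P12 and P13 and 1436, 1983 and 983 in Vector P12, P11 and P13. The 3 GOLPH3 libraries lay close together, within the span of the Vector libraries. Its log2 change was 0.28 (standard error 0.31, 95% confidence interval -0.40 to 0.95, limma adjusted p = 0.701). GCLM (chromosome 1, 93885205 to 93909456, minus strand), whose match is printed above, had 1140.0, 974 and 1154 in the GOLPH3-labelled libraries and 937, 1903 and 731 in the Vector-labelled ones. Vector P11 was the highest library for both subunits and Vector P13 the lowest. The log2 change of GCLM was -0.01 (standard error 0.36, 95% confidence interval -0.78 to 0.77, limma adjusted p = 0.995), and it was 0.39 without Vector P11.

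TXNRD1 encodes the cytosolic thioredoxin reductase, and SRXN1 encodes sulfiredoxin, which restores overoxidised peroxiredoxins. TXNRD1 (chromosome 12, 104215779 to 104350305, plus strand) had 12408, 23702 and 16751 normalized reads in GOLPH3 P8, P12 and P13 and 16124, 12466 and 7417 in Vector P12, P11 and P13. P12 was the highest library of each group, and GOLPH3 P8 fell below 2 of the Vector libraries. The log2 change was 0.57 (standard error 0.36, 95% confidence interval -0.22 to 1.37, limma adjusted p = 0.462). SRXN1 (chromosome 20, 646615 to 653370, minus strand) had 52.6, 378 and 264 in the GOLPH3-labelled libraries and 47.3, 5.48 and 109 in the Vector-labelled ones, where 5.48 rests on 5 reads. Within groups the highest library exceeded the lowest 7.18-fold for GOLPH3 and 19.9-fold for Vector, and GOLPH3 P8 lay beside Vector P12. Its log2 change was 2.43, with the widest error of the 9 (standard error 0.94, 95% confidence interval 0.37 to 4.49, limma adjusted p = 0.195). It ranged from 1.26 to 3.31 with a library left out, and the lowest value was the one without Vector P11. Another annotated gene on the same strand, AL121758.1, shares 2292 of the 2698 exon bases of SRXN1 (85.0%) and had 1.03 to 4.29 normalized reads. Whether reads of SRXN1 were lost to that overlap was not tested.

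NQO1 encodes the quinone reductase that is the standard readout of NRF2 activity. NQO1 (chromosome 16, 69706996 to 69726951, minus strand) had 5752, 4128 and 6152 normalized reads in GOLPH3 P8, P12 and P13 and 2437, 3361 and 2158 in Vector P12, P11 and P13. The lowest GOLPH3 library was above the highest Vector library. Mean levels of 5344 ± 1072 (SD, n = 3) and 2652 ± 629 (SD, n = 3) gave a log2 change of 1.02 (standard error 0.29, 95% confidence interval 0.37 to 1.66, limma adjusted p = 0.0755). An exact two-sided permutation test gave p = 0.1, the smallest that 3 libraries against 3 allow. An antisense gene, AC092115.2, shares 17.7% of the exon bases of NQO1 and had 0 reads in every library.

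HMOX1 encodes haem oxygenase 1, which opens the haem ring, and OSGIN1 encodes an oxidative stress-induced growth inhibitor. HMOX1 (chromosome 22, 35380361 to 35394214, plus strand) had 313, 614 and 849.7 normalized reads in GOLPH3 P8, P12 and P13 and 398, 248 and 422 in Vector P12, P11 and P13. GOLPH3 P8 lay within the Vector libraries and the other 2 above them. The log2 change was 0.66 (standard error 0.40, 95% confidence interval -0.21 to 1.52, limma adjusted p = 0.437). OSGIN1 (chromosome 16, 83948282 to 83966332, plus strand) had 263, 854 and 895 in the GOLPH3-labelled libraries and 303, 78.9 and 180.2 in the Vector-labelled ones. The overlap came from GOLPH3 P8, which was below Vector P12, as it was for HMOX1. The log2 change of OSGIN1 was 1.84 (standard error 0.55, 95% confidence interval 0.64 to 3.04, limma adjusted p = 0.0845). With each library left out in turn, limma called 0 to 2 of the 9 genes. The 2 were OSGIN1 (adjusted p = 0.0103) and SRXN1 (adjusted p = 0.0478), beside 6.07% of all genes, without GOLPH3 P8, the library that made their groups overlap, and 0 were called without any of the other libraries. OSGIN1 ranged from 1.32 to 2.42 and was lowest without Vector P11.

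Per kilobase of annotated exon, and averaged over the 6 libraries, TXNRD1 was the most abundant of the 9 (2208 normalized reads per kilobase), followed by NQO1 (1229), and this order held in 6 of 6 libraries. KEAP1 (388.0) and NFE2L2 (387.4) came next and did not differ beyond their spread, since KEAP1 was above NFE2L2 in 2 of 6 libraries. GCLM (210.3), HMOX1 (197) and GCLC (184) could not be ordered, with GCLM above HMOX1 in 3 of 6 libraries and HMOX1 above GCLC in 3 of 6. OSGIN1 (124) had a lower mean than GCLC, which was above it in 4 of 6 libraries. SRXN1 (52.9) had the lowest mean, and OSGIN1 was above it in 6 of 6 libraries. Exon bases shared with another gene on the same strand were not taken out of these lengths. They made up 85.0% for SRXN1, 17.6% for NFE2L2, 13.9% for OSGIN1 and 6.12% for GCLC, and their part in the order was not tested.

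The libraries differed in how they represented genes by GC content, and several of the 9 genes moved with this. Over 12635 genes with a mean of at least 50 normalized reads, split into deciles of GC content, the GC-richest decile had a median log2 deviation from the 6-library mean of -0.07, 0.34 and 0.80 in GOLPH3 P8, P12 and P13. The same decile had -0.25, -1.05 and 0.30 in Vector P12, P11 and P13. GC-rich genes were thus lowest in Vector P11 and highest in GOLPH3 P13, and GC-poor genes the reverse. The median log2 change between groups ran from -0.48 in the GC-poorest decile to 0.71 in the GC-richest.

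KEAP1 (61.3% GC) and HMOX1 (60.2%) lay in the ninth decile, whose median log2 change of 0.51 was near their own 0.64 and 0.66. OSGIN1 (61.9%) lay in the tenth, with 1.84 against a median of 0.71. NQO1 (47.1%) lay in the fifth, where the median was -0.07, and TXNRD1 (45.1%) in the fourth, where it was -0.18. SRXN1 (53.6%) lay in the seventh, with a median of 0.16. GCLC (43.9%) and NFE2L2 (43.4%) lay in the third and GCLM (40.4%) in the second, where the medians were -0.28 and -0.37.

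**Figure D2:**
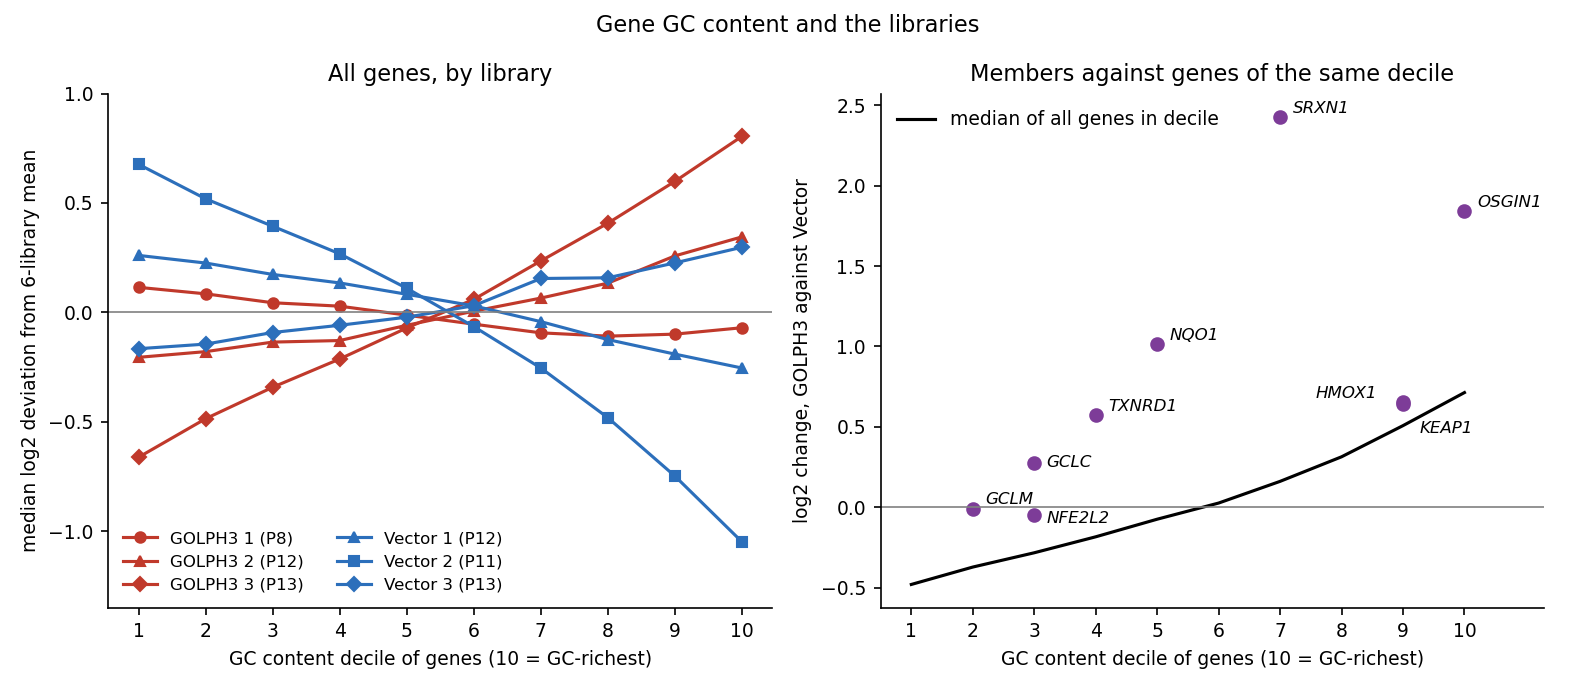
Left, median log2 deviation of genes from the 6-library mean by GC content decile, with a line for each library (red GOLPH3, blue Vector, symbols as the number after P). Right, log2 change of the 9 genes (points) against the median of all genes in the same decile (line), where KEAP1 and HMOX1 sit near the line and NQO1, SRXN1 and OSGIN1 above it.

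A correction for GC content, chosen after the data were seen, removed a smooth curve of log2 deviation on GC from each library. KEAP1 then had a log2 change of 0.07 and HMOX1 of 0.14, while NQO1 had 1.12 and passed the test (limma adjusted p = 0.00854), as 1 of 9 beside 6.03% of all genes. OSGIN1 had 1.24, SRXN1 2.28, TXNRD1 0.77, GCLC 0.52 and GCLM 0.39, and none of these passed. NFE2L2 changed sign, to 0.22.

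**Figure D3:**
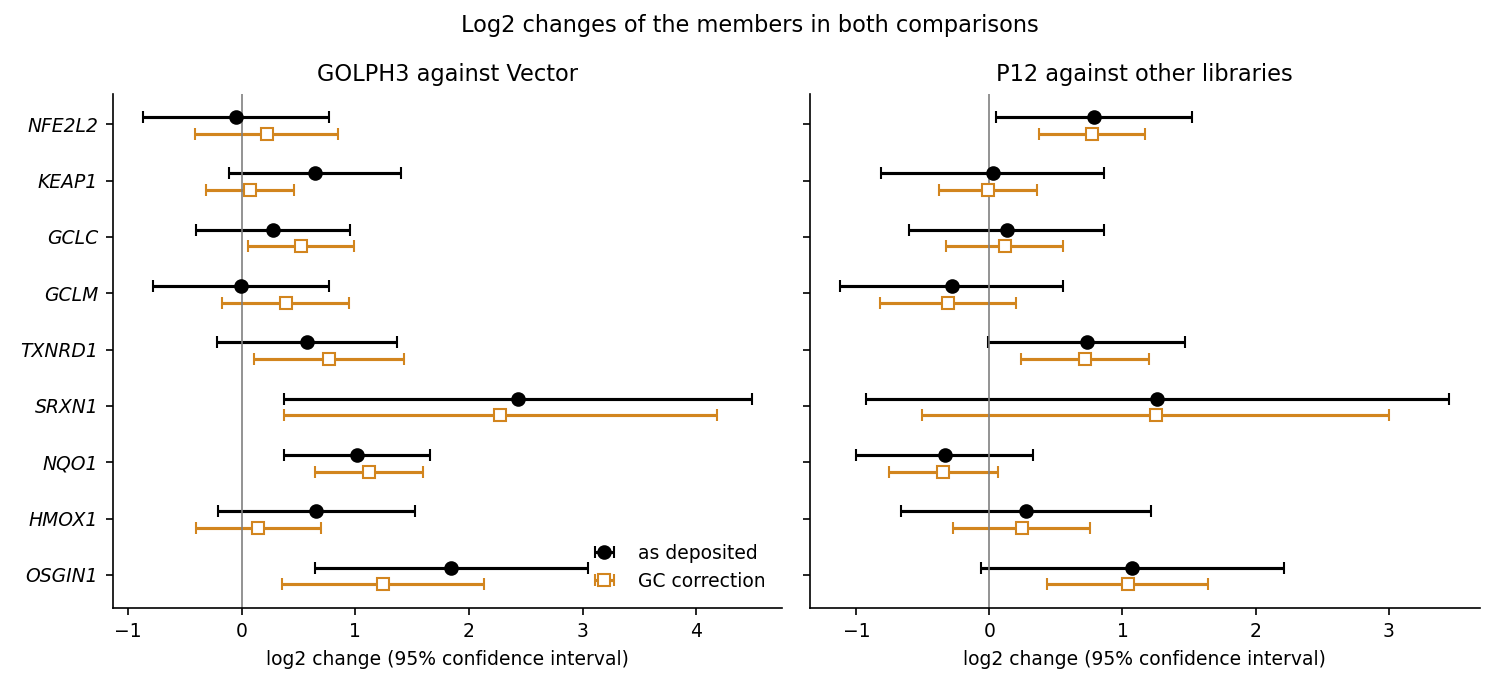
Log2 changes with 95% confidence intervals from limma, for GOLPH3 against Vector (left) and for the P12 libraries against the others (right), on the deposited values (black) and after GC correction (orange). In the left panel the intervals of SRXN1, NQO1 and OSGIN1 lie above 0 with and without correction, and KEAP1 and HMOX1 move towards 0.

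Libraries that share the number after P resembled each other across groups. The correlation of their deviations from the group means over 12635 genes was 0.62 for P12 and 0.60 for P13, and it was 0.65 between GOLPH3 P8 and Vector P11. Deviations of the libraries of a group sum to 0, so these correlations are tied to each other. The part of the GC differences in them was not tested. The 9 genes were also compared within each number. At P12, GOLPH3 differed from Vector by 2.97 for SRXN1, 1.49 for OSGIN1, 0.76 for NQO1, 0.68 for KEAP1, 0.62 for HMOX1, 0.56 for TXNRD1, 0.39 for GCLC, 0.06 for GCLM and -0.25 for NFE2L2 on the log2 scale. At P13 the differences in the same order were 1.27, 2.31, 1.51, 0.37, 1.01, 1.18, 0.70, 0.66 and 0.02. Thus 8 of 9 genes were higher in GOLPH3 in both pairs, against 33.6% of all genes tested. GOLPH3 P8 and Vector P11 share no number and were not counted here. Between them GCLC (1642 and 1983 normalized reads), GCLM (1140 and 1903) and TXNRD1 (12408 and 12466) were lower in GOLPH3. NFE2L2, KEAP1, SRXN1, NQO1, HMOX1 and OSGIN1 were higher. The number was also used as a block, in a fit that draws on the 4 libraries of P12 and P13. It leaves 1 residual degree of freedom, so its p-values rest mainly on variance taken from all genes. There limma called 7 of 9, all higher, beside 22.9% of all genes. NFE2L2 and GCLM were the exceptions (limma adjusted p = 0.742 and 0.20). The GC differences ran within both pairs. In the ninth GC decile, which holds KEAP1 and HMOX1, the median gene was higher in GOLPH3 by 0.46 at P12 and 0.36 at P13, and in the tenth, which holds OSGIN1, by 0.63 and 0.49. In the fifth, which holds NQO1, the medians were -0.11 and -0.02. The block was not combined with the GC correction, and the part of GC content in these calls was not tested.

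The P12 libraries were also set against the other 4, with the group in the model. This split was chosen with earlier results of these data known, so its p-values and shares are given as a description. No gene of 26536 was called by limma, and 0 of 9 beside 0.0%. At an unadjusted p under 0.05, 1 of 9 passed, beside 7.24% of all genes. That gene was NFE2L2, with a mean of 3174 normalized reads at P12 and 1887 elsewhere (log2 difference 0.79, 95% confidence interval 0.05 to 1.52, limma adjusted p = 0.658). It was the only one of the 9 whose P12 libraries did not overlap the others, beside 12.8% of all genes tested. TXNRD1 and OSGIN1 differed by 0.73 and 1.08 with intervals that reached 0 (-0.01 to 1.47 and -0.06 to 2.21). NQO1 differed by -0.34, GCLM by -0.28, GCLC by 0.13, HMOX1 by 0.27, KEAP1 by 0.02 and SRXN1 by 1.26.

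The other genes of the pathway were described from lists by role. Of 62 genes 61 could be tested, since UGT1A6 had 0 reads in every library. In the libraries labelled GOLPH3 2 rose and 2 fell, which is 6.56% beside 5.07% of all genes tested. At an unadjusted p under 0.05, 14 were higher and 3 lower, beside 7.51% and 10.1% of all genes in those directions. The median log2 change was 0.32 with 41 of 61 above 0, beside a median of 0.02 and 50.9% above 0 over all genes.

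**Figure D4:**
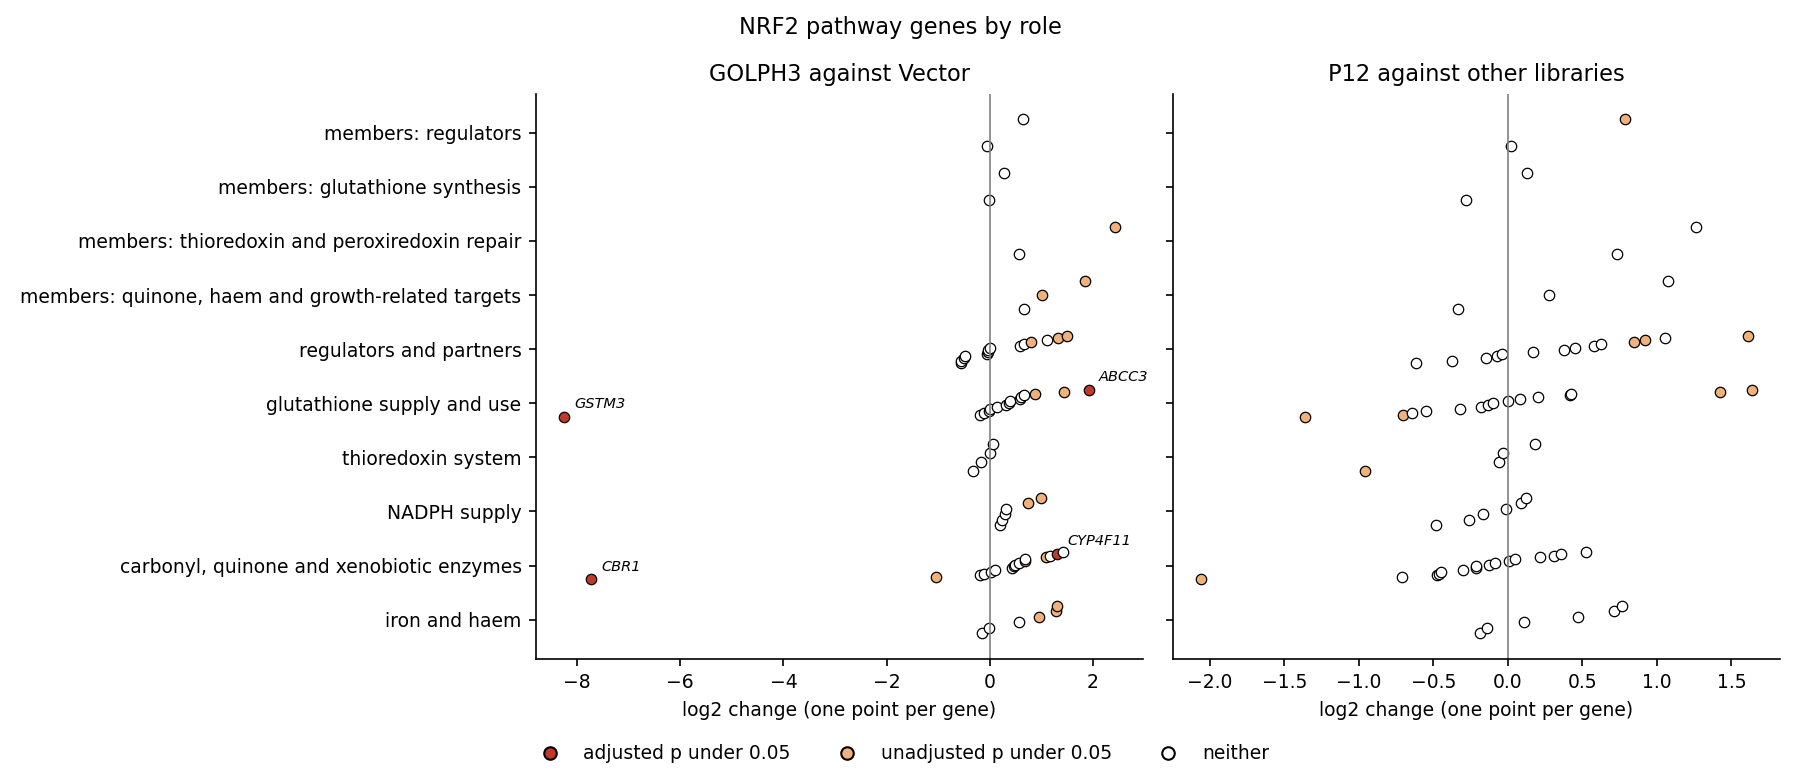
Log2 changes of the 9 genes (upper 4 rows) and of 61 other NRF2 pathway genes by role, for GOLPH3 against Vector (left) and P12 against the other libraries (right), with a point for each gene. Red points passed an adjusted p under 0.05 in limma and orange points an unadjusted p under 0.05, and only ABCC3, CYP4F11, GSTM3 and CBR1 are red.

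Among 14 regulators and partners 0 were called, with 3 higher at an unadjusted p under 0.05, beside 7.51% of all genes in that direction. SQSTM1, which encodes p62, an autophagy receptor that binds KEAP1, had 4879, 11033 and 8205 normalized reads in GOLPH3 P8, P12 and P13 and 4923, 1939 and 2952 in Vector P12, P11 and P13. GOLPH3 P8 lay just below Vector P12, and the log2 change was 1.32 (standard error 0.39, limma adjusted p = 0.0834). After GC correction it was 0.89 (limma adjusted p = 0.133). MAFK, a small MAF partner of NRF2, had a log2 change of 1.50 (standard error 0.56, limma adjusted p = 0.176), which was 0.77 after GC correction. At P12 another small MAF gene, MAFF, was 1.61 above the other libraries (limma adjusted p = 0.450).

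Glutathione supply and use gave 1 of 15 higher and 1 lower, beside 0.953% and 4.12% of all genes tested. ABCC3, an exporter of conjugated organic anions, rose, with 1322, 1582 and 1547 normalized reads in the GOLPH3-labelled libraries and 442, 360.4 and 378 in the Vector-labelled ones. The groups lay far apart with little spread inside each (log2 change 1.91, standard error 0.27, limma adjusted p = 9.29e-04), and the change was 1.63 after GC correction. GSTM3, a glutathione S-transferase, fell, with 0 reads in all 3 libraries labelled GOLPH3 and 328, 185 and 465 normalized reads in the Vector-labelled ones, which is at least 101-fold lower against the floor of 3 reads per library. This was the pattern of the HEK293-like list, and its part in the fall was not tested. SLC7A11 and SLC3A2, the subunits of the cystine-glutamate exchanger that supplies cysteine for glutathione, followed P12. SLC7A11 had 5012 and 3679.7 normalized reads in the P12 libraries and 1012 to 1665 in the others (log2 difference 1.64, limma adjusted p = 0.216, DESeq2 adjusted p = 0.00321). SLC3A2 differed by 1.43 (limma adjusted p = 0.479). Neither passed between groups, with log2 changes of 0.01 and 0.67 (limma adjusted p = 0.998 and 0.582), and 95% confidence intervals from -1.17 to 1.18 and from -0.53 to 1.87.

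None of the 4 genes of the thioredoxin system was called or had an unadjusted p under 0.05 between groups. PRDX6, a peroxiredoxin, had a log2 change of -0.33 with groups that did not overlap (3091 to 3322 and 3957 to 4246 normalized reads, limma adjusted p = 0.548), and TXN, thioredoxin itself, had -0.16. PRDX1 was lower at P12, with 4474 and 5556 against 6605 to 11983 (log2 difference -0.96, limma adjusted p = 0.555), and TXN2, the mitochondrial thioredoxin, differed by 0.18.

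All 6 NADPH supply genes had a log2 change above 0, beside 50.9% of all genes tested, and 0 were called, beside 5.07%. After GC correction TALDO1 had -2.8e-04 and PGD 0.04, and the others stayed above 0. TKT, transketolase of the pentose phosphate pathway, had 8903 to 14216 normalized reads in the GOLPH3-labelled libraries and 4501 to 8717 in the Vector-labelled ones. Its groups did not overlap, as in 22.0% of all genes tested. The log2 change of TKT was 0.74 (limma adjusted p = 0.270), and it was 0.37 after GC correction. At P12, IDH1 and PGD, whose enzymes make NADPH, differed by -0.48 and -0.26.

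Of 16 carbonyl, quinone and xenobiotic enzymes tested, 1 rose and 1 fell, beside 0.953% and 4.12% of all genes tested. CYP4F11, a cytochrome P450, had 428, 750.4 and 555 normalized reads in the GOLPH3-labelled libraries and 279, 251 and 171 in the Vector-labelled ones (log2 change 1.30, standard error 0.34, limma adjusted p = 0.0495). Its groups did not overlap, and its adjusted p reached 0.185 over the alternatives. CBR1, carbonyl reductase 1, had 0 reads in all libraries labelled GOLPH3 and 212, 119 and 371 normalized reads in the Vector-labelled ones, so that it was at least 72.7-fold lower, in the manner of GSTM3. The AKR1C genes, which are strong NRF2 targets in many cells, were low, with AKR1C1 at 7.42 to 41.6, AKR1C2 at 4.12 to 16.0 and AKR1C3 at 2.06 to 20.3 normalized reads. AKR1C3 had its 2 lowest values at P12 (log2 difference -2.06, limma adjusted p = 0.460), and these genes are close copies whose reads can be split between them. UGDH, which makes UDP-glucuronate, differed by -0.71 at P12.

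Among 6 iron and haem genes 0 were called and 3 had an unadjusted p under 0.05, all higher, beside 7.51% of all genes in that direction. FTL, the ferritin light chain, had 21705, 24331 and 34021 normalized reads in GOLPH3 P8, P12 and P13 and 16017, 13269 and 11558 in Vector P12, P11 and P13. Every GOLPH3 library was above every Vector library (log2 change 0.96, standard error 0.31, limma adjusted p = 0.108). The ferritin heavy chain FTH1 had 1.29 and BLVRB, biliverdin reductase B, 1.31 (limma adjusted p = 0.177 and 0.124), each with GOLPH3 P8 below Vector P12. After GC correction FTL had 0.67, FTH1 1.12 and BLVRB 0.74. At P12 FTH1 and BLVRB differed by 0.77 and 0.71.

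The paralogues of the 9 genes gave no call, with 4 of 5 tested. NQO2 had a log2 change of 0.34, TXNRD2, the mitochondrial reductase, 0.38, TXNRD3 -0.14 and OSGIN2 -0.23 (limma adjusted p between 0.630 and 0.860). TXNRD3 was the steadiest, at 174 to 178 and 185 to 216 normalized reads in the GOLPH3-labelled and Vector-labelled libraries. HMOX2, the constitutive haem oxygenase, had 3 reads in GOLPH3 P8 and 0 elsewhere. Whether its reads were lost in counting, as by overlap with another gene, was not tested, so its absence is not shown.

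Genes whose profile over the 6 libraries was most like each of the 9 were sought among 11258 genes with a mean of at least 100 normalized reads, as a description with no test. NQO1 was closest to TNFRSF10D (Pearson r = 0.99), a decoy receptor for TRAIL, and to TIMP2 (r = 0.99), an inhibitor of metalloproteinases. Both were higher in all 3 libraries labelled GOLPH3, as NQO1 was. OSGIN1 was closest to IRS2 and SFN, HMOX1 to MDK and PSMB6, KEAP1 to C1orf159 and GNPTG, and SRXN1 to FAAP100 and SLC39A13, with r between 0.997 and 0.999, and 7 of these 8 had a GC content above 58%. NFE2L2 was closest to USP25 and FBXO11, TXNRD1 to ZNF706 and ZNF7, GCLC to RAB22A and CSNK2A1, and GCLM to SFMBT1 and EIF2S1 (r between 0.98 and 0.99). Among the 9 genes themselves KEAP1, SRXN1, HMOX1 and OSGIN1 ran together (r between 0.83 and 0.95), GCLC ran with GCLM (r = 0.78), and GCLM ran opposite to SRXN1 (r = -0.68). All of these points share the libraries and their GC differences.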

How the data were processed

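The deposited values are a normalized signal per gene and library. The submitters' processing notes name fastp 0.20.0, HISAT2 2.1.0, Cufflinks, featureCounts 1.6.1 and DESeq2, and the GRCh38 build, without their roles. The annotation, the strand setting and the treatment of multimapping reads are not given in the sources used here. A step of 0.825 to 1.10, depending on the library, divided 100% of the values above 0 into whole reads, within 0.01 read, so the signal deposited by the authors is a read count scaled by a size factor. The table had 60590 rows, and 44 identifiers with a repeated row had both rows summed. Coordinates and exon lengths were taken from GENCODE 29, which held 96.4% of the identifiers.

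Log2(value + 1) was fitted with limma 3.58.1 in R 4.3.3 (mean-dependent prior variance) for genes that reached 1 normalized read in 3 or more libraries. The counts of calls were repeated with DESeq2 1.42.0 and edgeR 4.0.16 on the recovered reads. Other alternatives were a pseudocount of 0.1, no filter, a filter in every library, quantile normalization, replicate number and P number as blocks, P12 as a covariate, each library left out and a GC correction (lowess, span 0.3). All 9 genes are named. From each pathway list the genes named by rule are the 2 with the smallest p in each comparison, and all paralogues are named. An item that this rule named is not reported here. ABCC2, AKR1C1, AKR1C2, TALDO1, UGT1A6, GPX3 and the stress and marker genes were named after their values were seen. The members, the lists and the P12 comparison were chosen with earlier results of these data known. Data were also simulated with 200 genes changed by 2 on the log2 scale and a fixed dispersion of 0.1. For GOLPH3 against Vector limma recovered 177 of 200 over 28134 genes with 6 false calls. For P12 it recovered 165 over 28145 with 4 false calls. The simulation held no GC differences and no likeness of libraries by P number, so these figures need not hold for the real libraries. Each library counted as a sample. Libraries of a group differed by more than sampling noise (chi-square per degree of freedom of at least 74.9). Library-wide GC differences also raise this value, so it cannot show that the samples were independent. Floors cover counting error only.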

Additional observations from a re-analysis of the deposited data

How the results depend on the processing

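Of all genes tested, 1346 were called between GOLPH3 and Vector (253 higher, 1093 lower). The count was 405 (123 higher, 282 lower) with 1 normalized read required in every library, 2061 (630 and 1431) with DESeq2, 6082 (2636 and 3446) in the fit blocked on P number, and 459 to 1528 with a library left out, where Vector P12 and Vector P13 gave the lowest counts (459 and 481). The number of the 9 genes called went from 0 to 1 without a filter (OSGIN1, limma adjusted p = 0.0479, beside 3.92% of all genes), 2 with DESeq2, 7 with the P number as a block, 1 with GC correction and 0 to 2 with a library left out. The number of pathway genes called went from 4 to 1 with the stricter filter, which drops GSTM3 and CBR1 from the test, 10 with DESeq2, 24 with the P number as a block, 7 with GC correction and 1 to 10 with a library left out (10 without GOLPH3 P8, 1 without Vector P12 or without Vector P13). For P12 against the others, DESeq2 called 198 genes and 1 pathway gene (SLC7A11), GC correction 518 and 5 (SLC7A11, SLC3A2, MAFF and SQSTM1 higher, ABCC2 lower), and leaving out a library 0 to 23. Apart from the filter, the causes were not tested.

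The replicate numbers did not pair the libraries: the correlations of same-numbered libraries were -0.49, -0.28 and 0.60. With the replicate number as a block 1081 genes and 0 of the 9 were called.

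Changes near 0 turned sign. Between groups NFE2L2 was 0.22 with GC correction and -0.38 to 0.27 with a library left out, GCLM was 0.36 with the P number as a block, 0.39 with GC correction and -0.30 to 0.39 with a library left out, and TXN was 0.32 with GC correction. For P12, KEAP1 was -0.026 with quantile normalization, -0.058 with DESeq2, -0.047 with edgeR, -0.010 with GC correction and -0.23 to 0.29 with a library left out. With a library left out GCLC ranged from -0.074 to 0.36, GCLM from -0.57 to 0.018 and HMOX1 from -0.030 to 0.59. Adjusted p over the alternatives ranged from 3.20e-06 to 0.291 for NQO1 and from 3.03e-10 to 0.304 for OSGIN1. Both lowest values came from the limma fit blocked on P number, which leaves 1 residual degree of freedom. They rest mainly on variance taken from all genes and do not measure each gene's own spread between samples.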

Other observations

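Stress genes outside the NRF2 pathway were also set between the P12 libraries and the other 4, a split chosen with earlier results of these data known. Of 9 integrated stress response genes 7 were higher in the P12 libraries at an unadjusted p under 0.05, beside 4.02% of all genes in that direction, with a median log2 difference of 1.70 beside 0.02 over all genes, and 0 passed the adjusted test in limma. TRIB3, a pseudokinase induced by ATF4, had 8844 and 5131 normalized reads in GOLPH3 P12 and Vector P12 and 539 to 3343 in the other libraries (log2 difference 2.27, limma adjusted p = 0.282). DDIT3, which encodes CHOP, had 1499 and 1119 against 194 to 1033 (1.76, limma adjusted p = 0.446). Of the 4 metallothioneins tested, MT2A, a zinc and copper binding protein, had 26592 and 13784 against 2393 to 12501 (1.72, limma adjusted p = 0.221), and 3 of 4 were higher at an unadjusted p under 0.05, beside the same 4.02%. Of 7 heat shock genes tested, 6 had a log2 difference below 0, with a median of -0.87, and 5 of them had an unadjusted p under 0.05, beside 3.21% of all genes in that direction. None of the stress genes named here passed the adjusted test in limma. HSPA8, the constitutive cytosolic chaperone, had 6889 and 5454 against 17592 to 53929.8 (-2.46, limma adjusted p = 0.216).

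Between groups, 1 of the 9 integrated stress response genes fell (VLDLR), 0 of 4 metallothioneins and 0 of 7 heat shock genes were called. Of 9 antioxidant enzymes outside the pathway lists 1 fell, the secreted peroxidase GPX3, with 30.1, 11.5 and 9.61 normalized reads in the GOLPH3-labelled libraries and 121, 39.4 and 154 in the Vector-labelled ones (log2 change -2.51, limma adjusted p = 0.0373). Of 10 colon epithelial markers tested 3 rose (KRT18, CLDN4 and ELF3). Over all genes tested 0.953% rose and 4.12% fell between groups.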
